A study of Homo sapiens with 9 samples.

Results

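ATP-binding cassette (ABC) transporters are membrane proteins that use ATP to move drugs, lipids, peptides and metabolites across cell and organelle membranes. The genes described here were chosen by symbol, as those of the ABCA, ABCB, ABCC, ABCD and ABCG subfamilies, and 35 of the 15570 genes in the expression table fitted that rule. They comprise 10 ABCA, 7 ABCB, 10 ABCC, 4 ABCD and 4 ABCG genes. RefSeq lists 41 protein-coding genes in these subfamilies, and the other 6 (ABCA8, ABCA9, ABCB5, ABCB11, ABCC8 and ABCG5) were not analysed here.

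The cells were hCMEC/D3, an immortalised line of endothelial cells from human brain microvessels, used to study the blood-brain barrier in culture. All groups came from this 1 line. Control cells (n = 3 libraries) were left untreated. Oxygen and glucose deprivation (OGD, n = 3) began at 80% confluence and lasted 4 h, in medium free of glucose and a gas phase of 95% N2 with 5% CO2. In the OGD/R group (n = 3) the same deprivation was followed by 16 h in normal medium under 21% O2 and 5% CO2. OGD/R thus differs from OGD in oxygen, glucose, medium and time in culture, which cannot be told apart. Reoxygenation below stands for this whole step. The labels used here give no culture time or confluence for control cells, so comparisons with control are not known to be matched in time. Libraries were made from total RNA with an mRNA kit, and each gene has 1 value per library in FPKM, a count of fragments divided by transcript length and by the mapped fragments of the library. Nothing in the labels says that libraries of a group came from separate cultures. The p-values therefore reflect the spread between these libraries alone, which may be technical.

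In brain capillaries, the efflux pumps ABCB1 (P-glycoprotein), ABCG2 (breast cancer resistance protein) and several ABCC proteins return drugs and toxins to the blood. ABCA1, ABCA7 and ABCG1 export cholesterol and phospholipid from cells to apolipoproteins and lipoprotein particles. Other members work inside the cell, where ABCD2 and ABCD3 import fatty acids into peroxisomes, ABCD4 and ABCB9 serve lysosomes, and ABCB6, ABCB8 and ABCB10 serve mitochondria.

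Of the 35 genes, 21 reached 1 FPKM or more in 3 or more of the 9 libraries and were tested, and the other 14 stayed under 1 FPKM in all 9. FPKM summed to between 442696 and 605818 per library, highest in the 3 OGD libraries, so the values are not scaled to a common total. How many reads each library had is unknown, and no counting error can be given. Tests used limma on log2(FPKM + 1) over all 10818 genes that passed the same filter, with Benjamini-Hochberg adjustment and a threshold of 0.05, and fold changes on that scale understate the change of genes with low values. The median log2 fold change of all tested genes was -0.31 under OGD, 0.39 from OGD to OGD/R and 0.07 between control and OGD/R. These shifts were near 0 under 3 other scalings: median-of-ratios factors, quantile normalization, and removal of each library's trend on transcript length (referred to below as the length correction). All 3 bring the libraries to a common level, so this follows by construction and does not show which scale is right. Because the median gene shifts on the deposited scale, changes are also given relative to the median gene. Of 15 endothelial markers, 14 were listed and 7 of these (VWF, TEK, TIE1, KDR, FLT1, ERG and CLDN5) stayed under 1 FPKM in every library. The markers' summed FPKM was 49.4 to 61.7 in control, 36.1 to 37.2 after OGD and 105 to 118 after OGD/R, mostly from MCAM, ENG and EGFL7. Fibroblast markers, chiefly collagen I genes, summed to 20.4 to 28.2, 9.17 to 10.7 and 51.9 to 69.2 in the same order, and pericyte and smooth muscle markers to 13.7 to 19.3, 7.99 to 9.36 and 27.6 to 30.5. Epithelial markers summed to 166 to 201, 130 to 139 and 238 to 257, almost all from KRT18 and KRT8, with EPCAM at or under 0.104 and CDH1 at or under 0.0211 FPKM. The microglia and leukocyte list summed to 17.2 to 20.6, 20.6 to 21.7 and 25.7 to 27.2, almost all from CD68, and PTPRC was highest at 0.1 FPKM. Astrocyte and neuron markers in the table stayed under 1 FPKM each. The part of these shifts in the results below was not tested.

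ABCD3, a peroxisomal importer, had the highest level of all members in every group. Its FPKM values were 23.7, 27.1 and 20.7 in control, 11.3, 10.3 and 10.9 after OGD, and 17.5, 20.4 and 18.5 after OGD/R. Among the next highest in control cells were the mitochondrial ABCB10 (9.09 ± 1.36 FPKM, SD, n = 3), the lysosomal ABCD4 (7.56 ± 1.15) and the efflux pumps ABCC4 (5.89 ± 1.19) and ABCC5 (4.81 ± 1.26). In this order the replicate range of each overlapped that of the following one, whereas that of ABCD3 lay above all others. Of the pumps best known from the brain barrier, ABCC1 held rank 9 of 21, while ABCG2 and ABCB1 lay near the bottom of the order at ranks 17 and 20. After OGD/R, ABCC1 held rank 7, ABCB1 rank 20 and ABCG2 the last rank, 21.

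**Figure D1:**
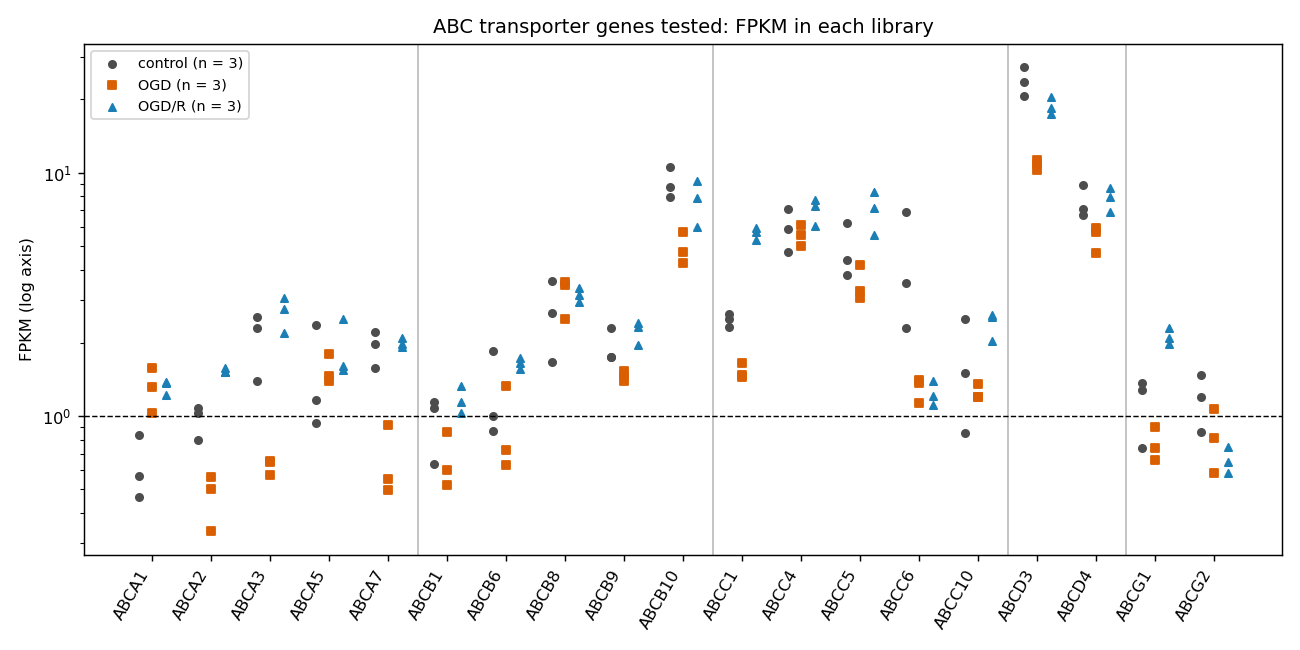
FPKM of 19 of the tested genes in each library, on a log axis, with genes along the horizontal axis and grey lines between subfamilies; points are single libraries (3 control, 3 OGD, 3 OGD/R) and the dashed line marks 1 FPKM. ABCD3 stands above every other gene in all 9 libraries, and ABCB1 and ABCG2 lie around the dashed line.

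The 14 genes under 1 FPKM in all libraries were ABCA4, ABCA6, ABCA10, ABCA12, ABCA13, ABCB4, ABCC2, ABCC3, ABCC9, ABCC11, ABCC12, ABCD2, ABCG4 and ABCG8. Among them 11 stayed under 0.2 FPKM in all 9 libraries, and 12 were listed at 0 in at least 1. They include ABCB4, the bile canaliculus phospholipid transporter next to ABCB1 on chromosome 7, whose highest value was 0.0236 FPKM, and the efflux pump ABCC2, which reached 0.189 FPKM. The pump ABCC3 came closest to the threshold at 0.987 FPKM, with means of 0.291, 0.317 and 0.839 FPKM in control, OGD and OGD/R. These 14 genes received no test, and with depth unknown no detection limit can be given for them.

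Promoter sequences are shown first for members on which the results turn, and the motif searches are descriptions only. RefSeq (GRCh38.p14) gave 46 windows of 250 bases before a transcript start for 28 of the 35 genes, 17 of them tested. The hypoxia-response core ACGTG, searched on both strands, occurred in 10 of the 46 windows, from 9 genes, against 18.5% of all 35116 windows of that length. The hexamer AGGTCA repeated directly with a gap of 4 bases, bound by liver X receptors, occurred in 0 of the 46 and in 0.0142% of all windows. Only exact repeats were counted, so a receptor site with a changed base would be missed. Absence of the exact repeat therefore does not show that a window lacks such a site. TGACGT occurred in 3 of the 46 (7.1% of all windows) and ATGCAAT in 1 (1.96%). The 4 windows printed here belong to ABCA1, the single member that rose under OGD on the deposited scale, to the pump ABCG2, and to 2 genes that fell under OGD, the highly expressed ABCD3 and ABCA3. All are written 5′ to 3′ on the strand of the gene, with ACGTG and its overlapping match on the other strand in capitals. The window of ABCA1 is chr9:104928156-104928405 (minus strand), the one of ABCG2 chr4:88158910-88159159 (minus), the one of ABCD3 chr1:94418139-94418388 (plus) and the one of ABCA3 chr16:2340729-2340978 (minus). The ABCG2 and ABCD3 windows precede a transcript start inside the gene's full span.
ABCA1: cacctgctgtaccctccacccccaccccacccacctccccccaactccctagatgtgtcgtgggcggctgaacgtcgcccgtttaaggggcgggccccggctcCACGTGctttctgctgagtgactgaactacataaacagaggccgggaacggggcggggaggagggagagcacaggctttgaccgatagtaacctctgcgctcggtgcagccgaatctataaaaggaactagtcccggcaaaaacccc
ABCG2: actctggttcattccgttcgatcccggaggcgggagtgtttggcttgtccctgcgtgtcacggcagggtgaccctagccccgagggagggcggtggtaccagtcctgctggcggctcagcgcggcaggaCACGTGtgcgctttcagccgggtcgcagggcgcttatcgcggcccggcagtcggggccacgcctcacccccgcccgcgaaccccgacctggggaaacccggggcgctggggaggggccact
ABCD3: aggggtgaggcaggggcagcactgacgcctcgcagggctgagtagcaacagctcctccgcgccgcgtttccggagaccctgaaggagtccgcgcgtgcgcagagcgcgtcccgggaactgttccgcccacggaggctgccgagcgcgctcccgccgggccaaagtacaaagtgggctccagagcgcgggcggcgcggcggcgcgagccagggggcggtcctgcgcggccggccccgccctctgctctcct
ABCA3: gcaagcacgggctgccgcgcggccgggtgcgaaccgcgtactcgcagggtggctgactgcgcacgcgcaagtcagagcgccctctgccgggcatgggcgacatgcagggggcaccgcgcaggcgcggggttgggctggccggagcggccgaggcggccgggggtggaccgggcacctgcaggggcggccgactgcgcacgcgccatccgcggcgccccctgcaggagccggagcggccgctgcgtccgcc

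The ABCA1 and ABCG2 windows hold the core as a palindrome, so that it reads on both strands, at 147 and 146 bases before the start in ABCA1 and at 121 and 120 bases in ABCG2. A second ABCG2 window overlaps this one and holds the same match, and the other ABCG2 windows hold none of the 4 motifs. The ABCD3 and ABCA3 windows, with 74.4% and 79.2% G and C, hold none of the 4 motifs. ACGTG also lies in a window of each of the tested ABCB6, ABCB9 and ABCC10. Their log2 fold changes under OGD were -0.23, -0.25 and -0.17, none of them called. A link between the motif and the changes was not tested.

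Among the efflux pumps, ABCC1 (multidrug resistance protein 1, which exports glutathione conjugates and leukotrienes) rose steeply from OGD to OGD/R. In log2(FPKM + 1), which compresses low values, ABCB1 rose by no more than the median gene, and ABCG2 was not called on the deposited scale. ABCC1 had 2.63, 2.50 and 2.32 FPKM in the control libraries, 1.45, 1.47 and 1.66 after OGD, and 5.29, 5.91 and 5.69 after OGD/R. The 3 groups did not overlap, with every OGD library lowest and every OGD/R library highest. From OGD to OGD/R the mean rose 3.69-fold and the log2 fold change was 1.39 (SE 0.12, limma adjusted p = 1.11e-06), which is 1.0 above the median gene. Against control, OGD/R was 2.27-fold higher (log2 fold change 0.93, SE 0.12, limma adjusted p = 0.000127). Both rises passed the test under all 20 alternative settings, at log2 values between 0.69 and 1.82 and between 0.67 and 1.15. Under OGD itself ABCC1 fell by 0.46 on the log2 scale (SE 0.12, limma adjusted p = 0.00556). That fall was only 0.15 beyond the median gene, and it did not pass after median-of-ratios scaling (adjusted p = 0.0667), quantile normalization (0.301) or the length correction (0.875). In bulk RNA, fewer cells of a type and less RNA per cell cannot be told apart.

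ABCB1, the P-glycoprotein gene, had 1.08, 1.14 and 0.635 FPKM in control, 0.598, 0.864 and 0.520 after OGD, and 1.03, 1.33 and 1.14 after OGD/R. Control and OGD overlapped, and all OGD/R libraries lay above all OGD libraries. The filter was passed through 2 control, 0 OGD and 3 OGD/R libraries. The log2 fold change for OGD against control was -0.23 (95% interval -0.54 to 0.09), with a limma adjusted p of 0.189. It was called lower only without control replicate 3 (log2 fold change -0.35, adjusted p = 0.0441). From OGD to OGD/R ABCB1 rose by a log2 fold change of 0.39 (SE 0.14, limma adjusted p = 0.0295), equal to the shift of the median gene. That equality depends on adding 1 FPKM, which compresses the change of a gene near 1 FPKM, and the mean FPKM rose 1.77-fold. Under median-of-ratios scaling the log2 fold change of ABCB1 was 0.17, beside 0.003 for the median gene. The call was lost under all 3 other scalings, with a changed sign under quantile normalization (-0.07) and the length correction (-0.25). It was also lost without OGD replicate 1 (adjusted p = 0.0842), OGD replicate 3 (0.113), OGD/R replicate 2 (0.102) or OGD/R replicate 3 (0.0665). OGD/R against control gave 0.16 (95% interval -0.15 to 0.47, limma adjusted p = 0.4). ABCB1 overlaps RUNDC3B on the genome, so reads may be shared where strand was not used.

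ABCG2 had 1.48, 1.19 and 0.863 FPKM in control, 0.812, 0.583 and 1.07 after OGD, and 0.585, 0.749 and 0.649 after OGD/R. Every OGD/R library lay below every control library, and the OGD libraries overlapped both. The mean after OGD/R was 0.56 times the control mean, with a log2 fold change of -0.38 (95% interval -0.70 to -0.06) and a limma adjusted p of 0.0542, above the threshold. It was called lower with median-of-ratios factors (-0.40, adjusted p = 0.0309), quantile normalization (-0.57, 0.00588), the length correction (-0.57, 0.00405), without the intensity trend (0.0406) and without control replicate 3 (-0.49, 0.0218). OGD against control gave -0.25 (95% interval -0.57 to 0.06, limma adjusted p = 0.151), called lower only without control replicate 3 (-0.36, adjusted p = 0.0488). ABCG2 passed the expression filter in exactly 3 libraries, 2 control and 1 OGD. For OGD/R against OGD it gave -0.13 (limma adjusted p = 0.453), and -0.33, -0.60 and -0.75 under the 3 other scalings, each called lower. An uncharacterised protein-coding locus (LOC124900867) overlaps it.

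ABCC4 and ABCC5, which export cyclic nucleotides and other organic anions, had higher levels than the 3 pumps above in control cells. ABCC5 had 6.23, 3.81 and 4.39 FPKM in control, 4.17, 3.04 and 3.28 after OGD, and 5.55, 8.29 and 7.17 after OGD/R. Its OGD/R libraries all lay above its OGD libraries (log2 fold change 0.83, SE 0.18, limma adjusted p = 0.00129), a call lost under quantile normalization (adjusted p = 0.144) and the length correction (0.413). Against control, OGD/R gave 0.47 (95% interval 0.08 to 0.86, adjusted p = 0.0538), and leaving out control replicate 1 (0.012) or OGD/R replicate 1 (0.0286) made it a call. Under OGD, ABCC5 was called lower only without control replicate 2 (-0.48, adjusted p = 0.0469). ABCC4 had 7.10, 4.73 and 5.85 FPKM in control, 6.07, 5.02 and 5.53 after OGD, and 6.05, 7.69 and 7.29 after OGD/R. It passed the limma test in no comparison (adjusted p 0.722, 0.0975 and 0.241), except on reoxygenation when only those 2 groups were fitted (0.0415). The scalings moved ABCC4 in both directions: it was called higher under OGD after quantile normalization (0.33) and the length correction (0.38), and lower on reoxygenation after the length correction (-0.39). Over the 5 tested pumps, 1 was lower under OGD, 3 were higher in OGD/R against OGD, and 1 was higher in OGD/R against control. Of all tested genes, 46.7%, 53.3% and 24.7% were called in those directions, so these shares of the pumps are no result about them.

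Ratios within a library, which do not depend on a library-wide factor, were compared after the values had been seen and carry no test. They are not free of a library's trend on transcript length, since the transcripts differ (6594 bases for ABCC1, 4778 for ABCB1 and 4479 for ABCG2). ABCC1 had 2.44, 2.19 and 3.66 times the FPKM of ABCB1 in control, 2.43, 1.70 and 3.19 times after OGD, and 5.13, 4.45 and 4.99 times after OGD/R. Its ratio to ABCG2 was 1.78, 2.10 and 2.69 in control, 1.79, 2.52 and 1.55 after OGD, and 9.05, 7.89 and 8.77 after OGD/R. Both ratios overlapped between control and OGD, and the OGD/R values lay above all others. ABCB1 was below ABCG2 in all 3 control libraries (0.731, 0.958 and 0.736 times) and above it in all 3 OGD/R libraries (1.76, 1.78 and 1.76 times).

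**Figure D2:**
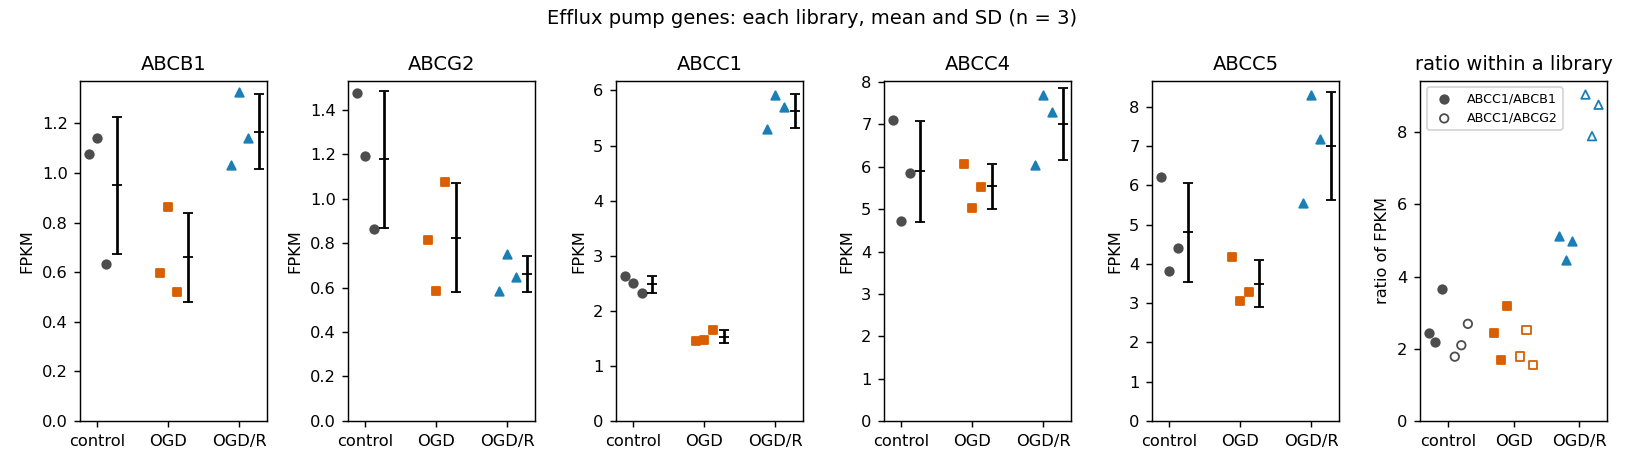
FPKM of 5 efflux pump genes in each library, with the mean and SD of each group (n = 3), and at the right the ratio of ABCC1 to ABCB1 (filled) and to ABCG2 (open) within each library. The 3 OGD/R libraries of ABCC1 lie between 5.29 and 5.91 FPKM, above all 6 other libraries, while the groups of ABCC4 overlap.

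ABCA1, which loads cholesterol and phospholipid onto apolipoprotein A-I, was the only tested member that rose under OGD on the deposited scale, from a level under 1 FPKM (other scalings added ABCB8 and ABCC4). It passed the expression filter through 3 OGD and 3 OGD/R libraries and 0 control libraries, so only through groups where it was high. A member as low in control that had not risen would not have been tested. Without the filter all 35 members were tested, and ABCA1 alone was called higher. Its values were 0.837, 0.463 and 0.564 FPKM in control, 1.58, 1.32 and 1.03 after OGD, and 1.22, 1.38 and 1.36 after OGD/R. All 6 libraries of the OGD and OGD/R groups lay above all 3 control libraries, and those 2 groups overlapped each other. OGD was 2.11-fold above control (log2 fold change 0.51, SE 0.14, limma adjusted p = 0.00763), or 0.82 above the median gene, and the call held in every alternative that could test it, at log2 values between 0.43 and 0.98. OGD/R remained 2.12-fold above control (log2 fold change 0.52, limma adjusted p = 0.0098), a call lost only under the length correction (0.25, adjusted p = 0.0982). For OGD/R against OGD the fold change was 0.01 (95% interval -0.29 to 0.31) on the deposited scale, but -0.47 under quantile normalization and -0.65 under the length correction, both called lower. At 10494 bases the ABCA1 transcript was the longest of the tested members, and the gene (chr9:104781006-104928155) overlaps NIPSNAP3B.

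ABCG1, which passes cholesterol on to high-density lipoprotein, rose on reoxygenation instead. It had 0.740, 1.36 and 1.28 FPKM in control, 0.657, 0.739 and 0.900 after OGD, and 2.10, 2.31 and 1.97 after OGD/R. Control and OGD overlapped, and every OGD/R library was above both groups. The filter was passed through 2 control, 0 OGD and 3 OGD/R libraries. OGD/R was 2.78-fold above OGD (log2 fold change 0.83, SE 0.14, limma adjusted p = 0.000246) and 1.88-fold above control (0.57, adjusted p = 0.00792). The first call was lost under the length correction (0.31, adjusted p = 0.113) and the second under quantile normalization (0.36, adjusted p = 0.0633). Under OGD it was not called (-0.26, adjusted p = 0.137) unless control replicate 1 was left out (-0.40, adjusted p = 0.0229). Within a library, ABCG1 stood at 0.884, 2.94 and 2.27 times the FPKM of ABCA1 in control, at 0.417, 0.561 and 0.872 times after OGD and at 1.73, 1.67 and 1.45 times after OGD/R, so that ABCA1 was the higher of the pair in all OGD libraries and the lower in all OGD/R libraries. A trend on transcript length can enter this ratio, since the transcripts have 3475 bases for ABCG1 and 10494 for ABCA1.

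ABCA7, a close relative of ABCA1 that moves phospholipid, went the other way under OGD. Its values were 2.21, 1.97 and 1.57 FPKM in control, 0.919, 0.496 and 0.551 after OGD, and 1.92, 2.09 and 1.98 after OGD/R. The OGD libraries lay below all others. The filter was passed through 3 control, 0 OGD and 3 OGD/R libraries, so only through groups where ABCA7 was high. ABCA7 fell by 0.82 on the log2 scale under OGD (SE 0.14, limma adjusted p = 0.000512), a call that held in every alternative that could test it. It rose by 0.86 from OGD to OGD/R (adjusted p = 0.000148), a call lost only under the length correction (0.16, adjusted p = 0.216), and OGD/R was close to control at 0.04 (adjusted p = 0.826).

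ABCA3, which packs phospholipid into lamellar bodies in lung cells, showed the same order of groups with larger steps. It had 2.55, 2.30 and 1.40 FPKM in control, 0.572, 0.651 and 0.650 after OGD, and 2.2, 2.75 and 3.06 after OGD/R. The OGD libraries were all below the rest, and control and OGD/R overlapped. ABCA3 passed the expression filter through 3 control, 0 OGD and 3 OGD/R libraries, so only through groups where it was high. The log2 fold change was -0.91 under OGD (SE 0.16, limma adjusted p = 0.000645) and 1.17 on reoxygenation (SE 0.16, adjusted p = 4.11e-05), a 4.28-fold rise of the mean, and both calls held in every alternative that could test them. ABCA2, a lysosomal and endosomal lipid transporter, had 1.03, 1.08 and 0.8 FPKM in control, 0.503, 0.335 and 0.562 after OGD, and 1.51, 1.51 and 1.57 after OGD/R. Its 3 groups did not overlap, and it passed the filter through 2 control, 0 OGD and 3 OGD/R libraries. ABCA2 rose on reoxygenation (log2 fold change 0.79, limma adjusted p = 0.00011), a call lost only under the length correction (0.10, adjusted p = 0.443). Its fall under OGD (-0.43, adjusted p = 0.0109) was lost under all 3 other scalings and without OGD replicate 2 (0.0606), and its rise over control (0.36, adjusted p = 0.0326) was lost in 11 of 19 alternatives. These included leaving out control replicate 3, OGD replicate 1 or 3, or any OGD/R replicate (adjusted p between 0.0504 and 0.0981). ABCA5, which overlaps ABCA10 by its gene span, ranged from 0.934 to 2.50 FPKM over all libraries and was called in no comparison. The length correction made it lower on reoxygenation (-0.52, adjusted p = 0.031), and leaving out control replicate 1 made it higher in OGD/R than in control (adjusted p = 0.0359).

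ABCD3, which imports branched-chain fatty acids and bile acid intermediates and whose values are given above, did not return to control. Its OGD libraries lay below both other groups and every OGD/R library lay below every control library. The log2 fold change was -1.07 under OGD (SE 0.11, limma adjusted p = 2.27e-05) and held in all 20 alternatives, and 0.75 on reoxygenation (SE 0.11, adjusted p = 8.48e-05), lost only under the length correction (0.14, adjusted p = 0.18). OGD/R stayed at 0.79 of the control mean (-0.32, adjusted p = 0.0372), a call lost in 10 of the 20 alternatives, among them leaving out control replicate 1 or 2, any OGD replicate, or OGD/R replicate 1 or 3 (adjusted p between 0.0521 and 0.12). ABCD2, also peroxisomal, did not exceed 0.161 FPKM.

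**Figure D3:**
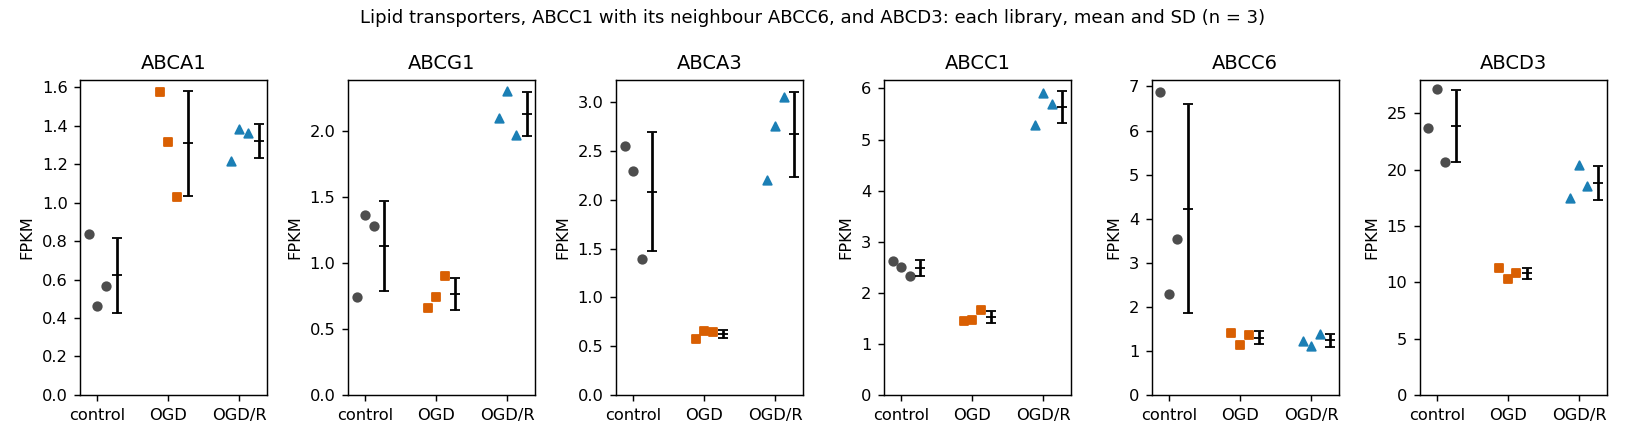
FPKM of ABCA1, ABCG1, ABCA3, ABCC1, ABCC6 and ABCD3 in each library, with the mean and SD of each group (n = 3) and a separate linear vertical axis from 0 for each gene. ABCA1 is higher in all 6 OGD and OGD/R libraries than in control, ABCC6 is lower in all 6, and the OGD libraries of ABCA3 and ABCD3 lie below both other groups.

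Of the mitochondrial members, ABCB10, which supports haem synthesis, fell under OGD in all 20 alternatives. It had 8.77, 10.6 and 7.92 FPKM in control, 5.71, 4.27 and 4.74 after OGD, and 6.0, 9.24 and 7.91 after OGD/R. Its OGD libraries lay below all others, with a log2 fold change of -0.77 (SE 0.16, limma adjusted p = 0.00181). Its rise on reoxygenation (0.55, adjusted p = 0.00879) was lost under all 3 other scalings, with the sign changed under the length correction (-0.011), and ABCB10 has 3 pseudogenes. ABCB6, a porphyrin transporter, had 0.996, 0.872 and 1.85 FPKM in control, 1.33, 0.728 and 0.630 after OGD, and 1.65, 1.56 and 1.74 after OGD/R. OGD/R lay above OGD (0.50, adjusted p = 0.0254), a call lost in 9 of 19 alternatives, with OGD replicate 2 or 3 or any OGD/R replicate left out among them (adjusted p between 0.0522 and 0.105). It was called higher than control in OGD/R only without control replicate 3 (adjusted p = 0.0447). ABCB8, a transporter of the inner mitochondrial membrane, ranged from 1.67 to 3.59 FPKM and passed the test in no comparison, although all 3 other scalings called it higher under OGD (0.51, 0.60 and 0.65) and 2 of them lower on reoxygenation (-0.57 and -0.63). In OGD/R against control, ABCB10 was not called on the deposited scale (-0.22, adjusted p = 0.295), while quantile normalization and the length correction called it lower (0.0439 and 0.0339).

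The lysosomal pair comprised ABCD4, which releases vitamin B12 from lysosomes, and the peptide transporter ABCB9. ABCD4 had 8.87, 6.69 and 7.12 FPKM in control, 4.70, 5.69 and 5.94 after OGD, and 6.91, 7.92 and 8.68 after OGD/R. The OGD libraries lay below all others (log2 fold change -0.41, limma adjusted p = 0.0245, against control, and 0.46, adjusted p = 0.0106, from OGD to OGD/R). Both calls were lost under all 3 other scalings and without OGD replicate 1 (adjusted p = 0.104 and 0.0538), the first also without control replicate 1 (0.0886) and the second without OGD/R replicate 3 (0.0532). The second changed sign under quantile normalization (-0.10). ABCB9, which overlaps OGFOD2, had 2.30, 1.75 and 1.75 FPKM in control, 1.40, 1.53 and 1.46 after OGD, and 1.95, 2.33 and 2.40 after OGD/R. Its OGD libraries were also below all others. ABCB9 rose on reoxygenation on the deposited scale (0.39, adjusted p = 0.0169), which reversed to a called fall under the length correction (-0.30, adjusted p = 0.0293). That rise was not called after median-of-ratios scaling (adjusted p = 0.477) or quantile normalization (-0.12), nor without OGD replicate 1 (0.0552) or OGD/R replicate 3 (0.0695).

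ABCC6, whose loss causes the calcification disorder pseudoxanthoma elasticum, fell under OGD and stayed low after reoxygenation. Its values were 6.86, 2.29 and 3.53 FPKM in control, 1.40, 1.13 and 1.36 after OGD, and 1.21, 1.11 and 1.39 after OGD/R. The control libraries differed widely among themselves (4.23 ± 2.36 FPKM, SD, n = 3), yet all lay above all 6 other libraries, whose groups overlapped. The log2 fold change was -1.09 under OGD (SE 0.24, limma adjusted p = 0.00244), lost only under the length correction (-0.65, adjusted p = 0.0521). OGD/R against control gave -1.13 (SE 0.24, adjusted p = 0.00292), a call kept in every alternative that could test it, at log2 values between -1.56 and -0.79. OGD/R against OGD gave -0.04 (95% interval -0.56 to 0.48), and -0.72 under the length correction, where it was called lower (adjusted p = 0.0258). The gene has 2 pseudogenes (ABCC6P1 and ABCC6P2) that are near-identical to part of it, so its values are uncertain.

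ABCC6 (chr16:16149565-16223494, minus strand) lies 6511 bases from ABCC1 (chr16:15949143-16143053, plus strand), and the genes point towards each other. These neighbours did not move alike in OGD/R against control, where ABCC1 was higher and ABCC6 lower in every alternative that could test them. The ratio of ABCC1 to ABCC6 within a library was 0.383, 1.09 and 0.657 in control, 1.03, 1.30 and 1.22 after OGD, and 4.36, 5.34 and 4.10 after OGD/R. ABCC10, a further drug-resistance protein, had 2.50, 1.51 and 0.849 FPKM in control, 1.20, 1.20 and 1.35 after OGD, and 2.03, 2.60 and 2.56 after OGD/R. It rose on reoxygenation on the deposited scale (log2 fold change 0.59, limma adjusted p = 0.0165), with all OGD/R libraries above all OGD libraries, but not with median-of-ratios factors (adjusted p = 0.157), quantile normalization (0.684) or the length correction (-0.066, 0.739). The call was also lost without OGD/R replicate 2 (0.0592) or 3 (0.0509). Against control ABCC10 was called higher only when control replicate 1 was left out (0.00663), and it overlaps DLK2.

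Counted over the 21 tested genes, OGD against control gave 1 higher call (ABCA1) and 10 lower calls. Of all 10818 genes tested, 11.3% were called higher and 46.7% lower (58.0% in either direction), and 52.4% of the tested members were called. OGD/R against OGD gave 14 higher and 0 lower calls among members (0 lower also at an unadjusted limma p under 0.05), beside 53.3% higher and 17.4% lower of all genes (70.7% together), and 66.7% of members were called. OGD/R against control gave 5 higher (ABCA1, ABCA2, ABCC1 and ABCG1 among them) and 2 lower calls (ABCC6 and ABCD3), beside 24.7% higher and 16.5% lower of all genes (41.2% together), and 33.3% of members. The share of members called was thus near that of all genes in each comparison, and with 21 members these counts are no result about them. The median log2 fold change of the members was -0.34, 0.50 and 0.23 in the 3 comparisons, against -0.31, 0.39 and 0.07 for all genes. The first 2 comparisons share the OGD libraries, so a low value there enters both.

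**Figure D4:**
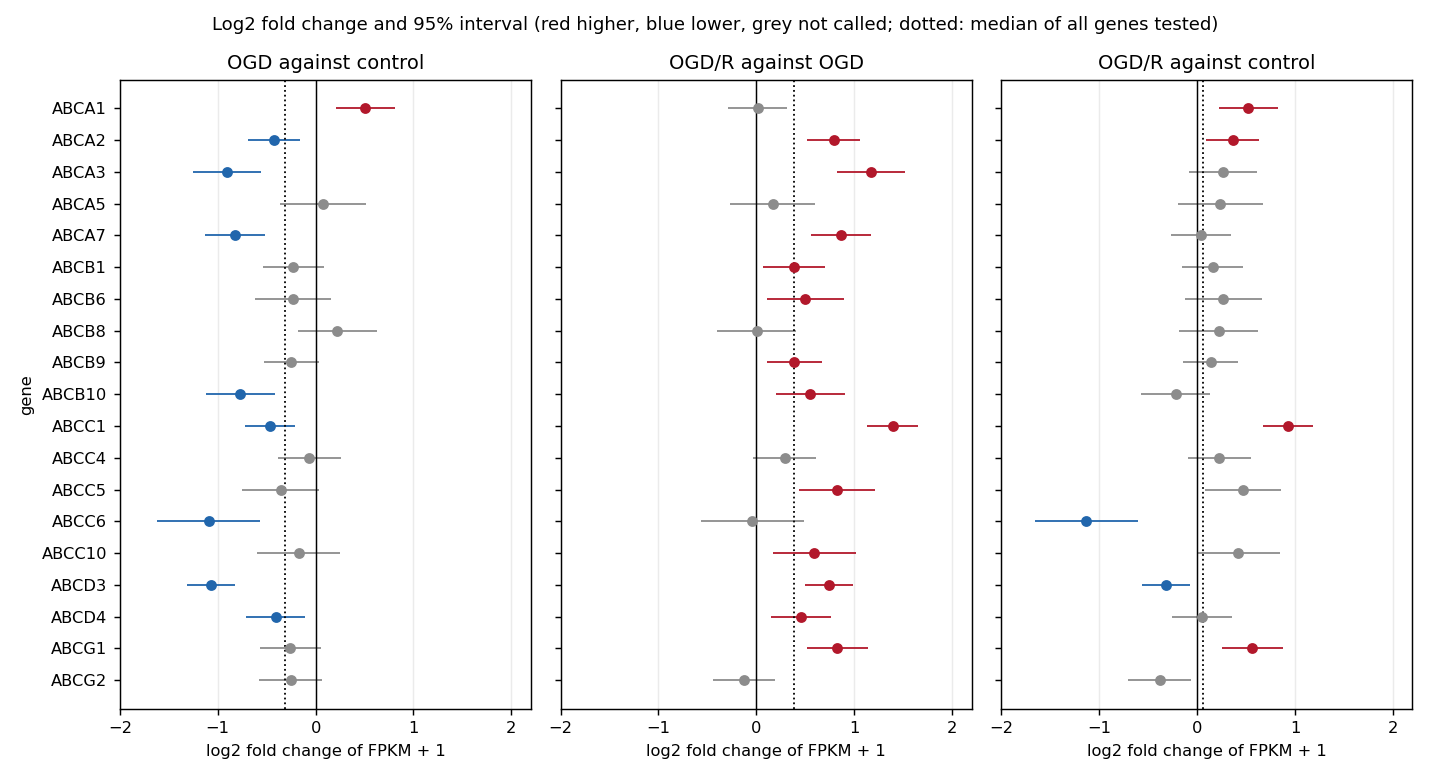
Log2 fold change of FPKM + 1 with its 95% interval for 19 of the tested genes in each comparison, coloured by call at a limma adjusted p under 0.05, with the median of all tested genes dotted (-0.31, 0.39 and 0.07). On this deposited scale ABCA1 alone is higher under OGD, no gene is lower in OGD/R against OGD (under the length correction 8 of the 21 tested members are, beside 29.6% of all genes), and ABCC1 and ABCC6 lie at opposite ends of OGD/R against control.

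The direction of the reoxygenation counts depended on the scaling. In OGD/R against OGD median-of-ratios scaling gave 8 higher and 1 lower member, beside 32.6% and 34.2% of all genes. Quantile normalization gave 7 and 4, beside 31.4% and 31.3%. The length correction gave 3 and 8, where 29.7% of all genes were higher and 29.6% lower. The members have long transcripts, with a median of 5088 bases (3003 to 10494) against 3372.5 for all tested genes. The 5798 tested genes of that length range had median log2 fold changes of -0.43, 0.62 and 0.18 in the 3 comparisons, further from 0 than the members' -0.34 and 0.50 in the first 2. Of the 32 member calls in the 3 comparisons, 11 held in every alternative that could test them. Under OGD these included the rise of ABCA1 and the falls of ABCA3, ABCA7, ABCB10 and ABCD3. In OGD/R against OGD they included the rises of ABCA3 and ABCC1, and against control they were the rise of ABCC1 and the fall of ABCC6. Among these genes, ABCA1, ABCA3 and ABCA7 passed the filter only through groups where they were high.

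**Figure D5:**
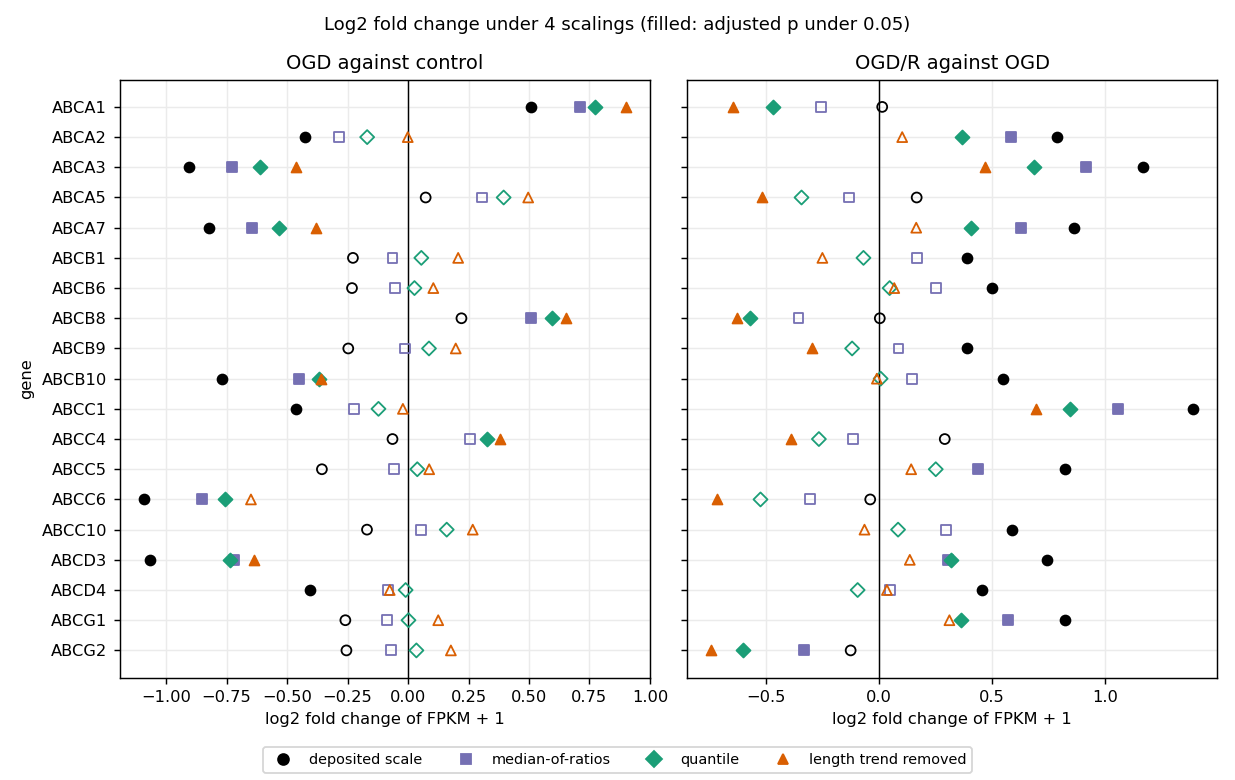
Log2 fold change of 19 of the tested genes in OGD against control and OGD/R against OGD on the deposited scale and under 3 other scalings, with filled symbols for a limma adjusted p under 0.05. For most genes the points move right under OGD and left on reoxygenation as the scaling changes, and ABCA3 and ABCC1 stay to the right of 0 and filled under all 4 scalings in OGD/R against OGD.

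By subfamily, summed FPKM was lower after OGD than in control in each of the 5, without a test. The ABCC sum was 19.4 ± 5.49, 13.5 ± 1.25 and 24.2 ± 2.83 FPKM (SD, n = 3) in control, OGD and OGD/R. The ABCA and ABCG sums were small, with 7.46, 4.75 and 9.56 for ABCA and 2.66, 1.70 and 2.95 for ABCG. Under OGD, 1 of 5 tested ABCA genes was called higher and 3 lower, 2 of 5 ABCC genes were lower, and 0 of 2 ABCG genes were called, beside 11.3% higher and 46.7% lower of all genes. At an unadjusted limma p under 0.05 the ABCG count was also 0.

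All 6 tested ABC proteins outside these subfamilies were higher in OGD/R than in OGD and than in control on the deposited scale, and all 6 stayed higher than control under the 3 other scalings. Against OGD, 4 of the 6 were called higher under each of those scalings, where 29.7% to 32.6% of all genes were. The peptide loaders of antigen presentation TAP1 and TAP2 had mean FPKM of 60.4, 34.2 and 75.6, and of 11.9, 7.17 and 24.7, in control, OGD and OGD/R. A list of nuclear receptors and factors known to regulate ABC genes, which also held the target gene MYLIP, had 16 tested genes. Under OGD 0 were higher (also 0 at an unadjusted limma p under 0.05) and 11 lower. In OGD/R against OGD 8 were higher and 0 lower, and against control 3 higher and 2 lower. MYLIP was among the 11, the 8 and the 3. Of all genes tested, 11.3% were higher and 46.7% lower under OGD, 53.3% and 17.4% in OGD/R against OGD, and 24.7% and 16.5% in OGD/R against control. The length correction turned the counts of this list into 2 and 3, 5 and 3, and 3 and 3. Neither list was tested against the shares of all genes. NR1I2 and NR1I3, the xenobiotic receptors that induce ABCB1 in other cells, were each under 1 FPKM in all libraries. MYLIP, a liver X receptor target like ABCA1 and ABCG1, had mean FPKM of 2.34, 1.17 and 4.47, and SREBF1, another, 13.2, 5.80 and 21.9. Both were called higher in OGD/R than in OGD and than in control under all 4 scalings. Under OGD both were called lower on the deposited scale (limma adjusted p = 0.00598 and 0.000147), MYLIP under none of the other scalings. ABCA1, by its values above, was called higher in both OGD and OGD/R than in control, the second not under the length correction.

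Among 12 tested partners of ABC transporters, 1 was higher and 7 lower under OGD, 5 higher and 0 lower in OGD/R against OGD, and 3 higher and 1 lower in OGD/R against control. Of all genes tested, 11.3% were higher and 46.7% lower under OGD, 53.3% and 17.4% in OGD/R against OGD, and 24.7% and 16.5% in OGD/R against control. Quantile normalization gave 5 partners higher and 6 lower in OGD/R against OGD, beside 31.4% and 31.3% of all genes. The linker proteins that anchor ABCB1 to actin had mean FPKM of 39.9, 26.1 and 88.6 for MSN, 55.9, 41.5 and 76.1 for EZR and 27.4, 11.8 and 23.5 for RDX. Of 19 tested solute carriers of the brain barrier, 2 were higher and 9 lower under OGD, 16 higher and 1 lower in OGD/R against OGD, and 11 higher and 2 lower in OGD/R against control. The length correction gave 5 and 5, 9 and 2, and 11 and 3. The glucose carrier SLC2A1 had mean FPKM of 43.2, 52.5 and 98.7 in the 3 groups, and the amino acid carrier subunit SLC3A2 79.6, 182 and 100.2, so SLC3A2 was highest under OGD. Both rises under OGD were called under all 4 scalings.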

How the data were processed

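The authors deposited 1 table of FPKM values for 15570 genes (15533 protein coding) and 9 libraries, which is the data used here. The build was GRCh38, per the submitters' processing notes. Which aligner, quantifier and annotation the authors used, and whether they counted by strand, is not given in the sources used here. Low values did not fall on multiples of single reads, so depth is unknown and no counting interval was computed.

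Tested genes (10818) had 1 FPKM or more in 3 or more of 9 libraries. Values were taken as log2(FPKM + 1) and fitted with limma 3.58.1 in R 4.3.3 (lmFit, then eBayes with an intensity trend). All 9 libraries entered 1 fit (residual degrees of freedom 6, prior 6.33). Tests of the 3 comparisons were 2-sided, with Benjamini-Hochberg adjustment over all genes tested and a threshold of 0.05. Every adjusted p comes from limma. The fit was tested on simulated data.

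The 20 alternatives covered pseudocounts of 0.1 and 0.5, no filter and a filter at 5 FPKM, median-of-ratios scaling, quantile normalization, removal of a lowess trend (span 0.3) on transcript length, a replicate block, a robust prior, no trend, only the 2 groups compared, and leaving out each library. A filter can leave a gene out of some alternatives, so that 16 to 20 could test it.

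Members were the genes whose symbols begin with ABCA, ABCB, ABCC, ABCD or ABCG and a digit. Values per library were given for ABCB1, ABCG2, ABCC1, members called in any comparison with groups that did not overlap, and the highest member of each subfamily. Members, gene lists and motifs were chosen with earlier results of these data known. Coordinates and promoter windows came from RefSeq (GRCh38.p14). Transcript lengths (the longest transcript of each gene) and strands came from GENCODE. Protein sequences were not used here. Results of 2 tested members are not reported here by name, though the counts over all members include them. Python 3.11.15 with matplotlib 3.10.9 drew the figures.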

Additional observations from a re-analysis of the deposited data

How the results depend on the processing

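Of 1092 log2 fold changes of named members recomputed under alternatives, 982 kept their direction and side of the threshold, 69 lost the call, 26 gained one and 15 changed sign where a call was involved. These 15 sign changes came from quantile normalization and the length correction. Under quantile normalization they were ABCC4 (0.33) in OGD against control, and ABCA1 (-0.47), ABCB1 (-0.07), ABCB8 (-0.57), ABCB9 (-0.12) and ABCD4 (-0.10) in OGD/R against OGD. Under the length correction they were ABCC4 (0.38) in OGD against control, and ABCA1 (-0.65), ABCA5 (-0.52), ABCB1 (-0.25), ABCB8 (-0.63), ABCB9 (-0.30), ABCB10 (-0.011), ABCC4 (-0.39) and ABCC10 (-0.066) in OGD/R against OGD. The cause was not tested.

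Counts are given as higher and lower, first for OGD against control, then for OGD/R against OGD and last for OGD/R against control, and were 1 and 10, 14 and 0, and 5 and 2 as reported. They became 2 and 6, 8 and 1, and 5 and 3 after median-of-ratios scaling. Beside these, 26.5% and 23.1%, 32.6% and 34.2%, and 22.1% and 23.0% of all genes were called. After quantile normalization they were 3 and 6, 7 and 4, and 3 and 5, and after the length correction 3 and 5, 3 and 8, and 3 and 5. A filter at 5 FPKM left fewer members and gave 0 and 5, 5 and 0, and 2 and 1. Lower calls in OGD/R against control numbered 1 without a filter and 1 in the fit of only the 2 groups. Leaving out 1 library gave 1 to 1 higher and 8 to 11 lower calls in OGD against control. It gave 9 to 14 higher and 0 to 0 lower in OGD/R against OGD, the lowest without OGD/R replicate 3. In OGD/R against control it gave 3 to 8 higher (3 without OGD/R replicate 3, 8 without control replicate 1) and 1 to 3 lower.

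Libraries of the same number did not deviate together (correlations -0.20 to 0.148), so the numbers were not taken as pairs. With the replicate block, lower calls in OGD against control were 9, and calls in OGD/R against control were 4 higher and 1 lower. The members near 1 FPKM, ABCB1 and ABCG2 among them, are limited by an unknown depth.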
